A study of Mus musculus with 9 samples.

Results

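Park7 encodes DJ-1, and the 7 genes described here encode proteins reported to bind DJ-1 or to act downstream of it. They are Daxx, Map3k5, Hipk1, Sfpq, Nono, Bcl2l1 and Efcab6, chosen by name from what is known of DJ-1, with earlier results of these data known. All 7 were among the 26602 genes with at least 1 count, and 6 of them were expressed highly enough to be tested.

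RNA-seq was performed on midbrain tissue containing the substantia nigra from 4 DJ-1+/+ (WT) and 5 DJ-1-/- (DJ-1 KO) mice at 3 to 4 months of age with no treatment named, with 1 library per mouse. The DJ-1-/- mice were homozygous for a targeted Park7 allele carried in every cell type, and the colony had been backcrossed to C57BL/6 with both genotypes bred from heterozygous parents. The libraries were read from the polyadenylated end of each transcript and carried unique molecular identifiers (UMIs), so that each molecule was counted once and counts do not grow with transcript length. Levels are given as counts per 1000000 (cpm), a scaling of each UMI count by its library total, and in these 3′ libraries they can be set side by side between genes.

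Between 841974 and 886085 molecules were counted in DJ-1+/+ and between 967751 and 1098125 in DJ-1-/- mice, so that every DJ-1-/- library was the deeper. With all libraries thinned to 841974 counts, no member had an unadjusted p under 0.05. The smallest level that can be shown, 3 counts in a library, was 2.73 to 3.56 cpm. The genotype labels were checked with Park7 itself, which fell from 135 ± 15.7 cpm (SD, n = 4) to 20.4 ± 4.54 cpm (SD, n = 5), a log2 fold change of −2.71. Xist was at 0 to 1.95 cpm in 3 mice (DJ-1+/+ replicate 1, DJ-1+/+ replicate 4, DJ-1-/- replicate 5) and at 153 to 182 cpm in the other mice, which matters here because Nono is X-linked. All 9 dopaminergic neuron markers had counts, as the labelled tissue should, but markers of neighbouring regions were unequal between mice. DJ-1+/+ replicate 4 was richest in choroid plexus markers and DJ-1+/+ replicate 1 in cerebellar neuron markers.

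DJ-1 is a small redox-sensitive protein, and much of what is known of it comes from the proteins it holds. In the nucleus it binds Daxx, a death-domain-associated protein and histone chaperone, and keeps it away from the cytoplasm, where Daxx can activate ASK1, the kinase encoded by Map3k5 that starts the JNK and p38 stress cascades. HIPK1 is a nuclear kinase that phosphorylates Daxx and acts on the same route. SFPQ (PSF) and NONO (p54nrb) are paired RNA- and DNA-binding proteins of the nucleus, and DJ-1 binds both and relieves the repression that SFPQ exerts on transcription, including that of human tyrosine hydroxylase. Bcl-xL, encoded by Bcl2l1, blocks the mitochondrial route to apoptosis and is bound by DJ-1 at mitochondria. EFCAB6 (DJBP) is an EF-hand protein that binds DJ-1 and recruits a deacetylase complex.

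The question put to the data was whether loss of DJ-1 is accompanied by a different transcript level of its partners. None of the 6 tested members passed an adjusted p of 0.05 in edgeR's quasi-likelihood test (Benjamini-Hochberg adjustment over all 18127 genes tested), and none had an unadjusted p under 0.05 either, in that test or in DESeq2. Over all genes tested, 0.00552% were called at the adjusted threshold, which is Park7 alone, and 2.83% had an unadjusted p under 0.05 (1.57% higher and 1.26% lower in DJ-1-/- mice). No member had levels that parted the genotypes, as 1.25% of all genes tested did. The median log2 fold change of the 6 members was −0.08, against 0.01 over all genes tested. All 6 estimates were below 0, as were 48.1% of those over the whole table, and that of Map3k5 is 0.00 after rounding and changed sign between settings. All 6 had a mean of at least 50 cpm. Of the 7562 other genes tested at that level, 4004 had an estimate below 0, and their median log2 fold change was −0.01.

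**Figure D1:**
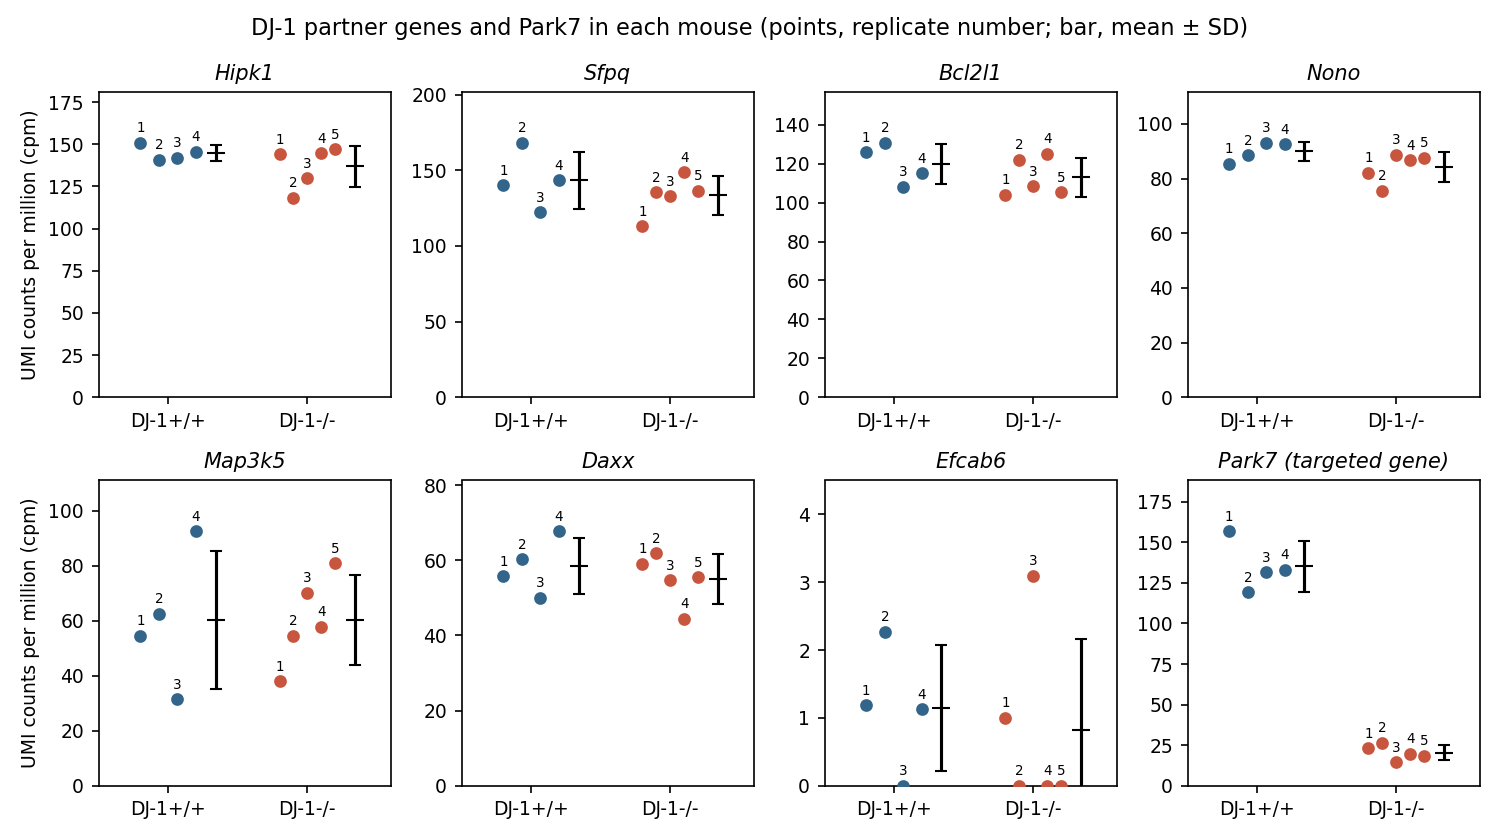
Level of each of the 7 members and of Park7 in every mouse, in cpm on linear axes that start at 0, with single mice as numbered points and bars for the mean ± SD (n = 4 DJ-1+/+ and n = 5 DJ-1-/-). The genotypes overlap for every member, Map3k5 is the most scattered of the 6 tested genes, and Park7 is separated, with all DJ-1-/- mice at or under 26.4 cpm.

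Daxx (ENSMUSG00000002307) is a plus-strand gene of chromosome 17 (33909414 to 33915590) (GRCm38). The UMI counts of the DJ-1+/+ mice were 47, 53, 43 and 60, and those of the DJ-1-/- mice 59, 68, 53, 43 and 57. On the cpm scale this was 55.8, 60.2, 50.03 and 67.7 cpm against 59.1, 61.9, 54.7, 44.4 and 55.5 cpm. The highest mouse was a DJ-1+/+ and the lowest a DJ-1-/- mouse, with the remaining values intermixed. The means were 58.4 ± 7.46 cpm (SD, n = 4) and 55.1 ± 6.64 cpm (SD, n = 5). The log2 fold change was −0.08 with a 95% interval of −0.38 to 0.21 (unadjusted p = 0.558 and adjusted p = 1 in edgeR's test), so a fold between 0.77 and 1.16 is within the error.

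The genes whose products work with Daxx at chromatin and in PML bodies were described from a list of 10, of which 9 were tested. In DJ-1-/- mice 4 of them had a higher and 5 a lower estimate, around a median log2 fold change of −0.01, and edgeR gave none an unadjusted p under 0.05. Atrx, the remodeller that deposits histone H3.3 together with Daxx, was at 204 ± 23.2 cpm (DJ-1+/+) against 195 ± 35.7 cpm (DJ-1-/-, SD over 4 and 5 mice). Daxx was thus the less abundant transcript of the pair in this tissue. H3f3a, one of the H3.3 genes, had a log2 fold change of 0.20 (standard error 0.18, edgeR unadjusted p = 0.268).

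Map3k5 (ENSMUSG00000071369) is a plus-strand gene of chromosome 10 (19934472 to 20142753). Its counts were 46, 55, 27 and 82 in DJ-1+/+ and 38, 60, 68, 56 and 83 in DJ-1-/- mice, or 54.6, 62.5, 31.4 and 92.5 cpm against 38.04, 54.6, 70.1, 57.9 and 80.9 cpm. Both the lowest and the highest mouse were DJ-1+/+, replicates 3 and 4, and the DJ-1-/- mice lay between them. The means were almost equal, 60.3 ± 25.2 cpm (SD, n = 4) and 60.3 ± 16.2 cpm (SD, n = 5). The log2 fold change was 0.00 with a 95% interval of −0.53 to 0.52 (edgeR unadjusted p = 0.990), the widest interval of the 6 members. Leaving out DJ-1+/+ replicate 4 moved it to 0.28 and leaving out DJ-1+/+ replicate 3 to −0.22, neither with an unadjusted p under 0.05.

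The scatter of Map3k5 was well beyond counting error. The chi-square statistic of its counts between mice of one genotype, divided by its degrees of freedom, was 6.46, where counting error alone gives about 1. Of the 10441 genes with at least 200 counts, 97.2% had a lower value. The coefficient of variation within a genotype was 34.1%, against 13.2% expected from counting. No other tested member exceeded 1.64 by this measure.

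The level of Map3k5 moved with that of thalamic neuron genes. The summed level of Tcf7l2, Prkcd, Lef1, Gbx2 and Ramp3, a list written after the scatter of Map3k5 had been seen, was 198, 338, 188 and 853 cpm in the DJ-1+/+ mice and 182, 263, 421, 262 and 798 cpm in the DJ-1-/- mice. The mice with the most thalamic transcript, DJ-1+/+ replicate 4 and DJ-1-/- replicate 5, were also those with the most Map3k5, and the mice with the least, DJ-1-/- replicate 1 and DJ-1+/+ replicate 3, were those with the least Map3k5. As a description over the 9 libraries, Pearson's r of the log2 values was 0.89 and Spearman's rho 0.97. Without those highest mice r was 0.83 over 7 libraries, and it was 0.87 within DJ-1+/+ and 0.93 within DJ-1-/- mice. Of 7565 other genes at 50 cpm or more, 99.0% followed the thalamic sum less closely. Dopaminergic neuron markers did not follow Map3k5 in this way (r = −0.09, rho = 0.00). Choroid plexus markers gave r = 0.65, ependymal markers 0.37, endothelial markers −0.77 and oligodendrocyte markers −0.70. Astrocyte markers gave r = −0.63 (rho = −0.77), neuron markers −0.49 and microglia markers −0.37. Forebrain neuron markers gave r = 0.55 and cerebellar neuron markers 0.29 (rho = 0.63), so Map3k5 also moved with lists other than the thalamic one. The part of the dissection in the scatter was not tested. With the thalamic sum as a covariate, an alternative chosen after seeing the data, the log2 fold change of Map3k5 between genotypes remained 0.00 (standard error 0.23). Both mice with the most Map3k5 had almost no Xist (1.13 and 1.95 cpm). DJ-1+/+ replicate 1 had no Xist counts either, and 54.6 cpm of Map3k5. With Xist as a covariate the log2 fold change of Map3k5 was 0.21 (standard error 0.23, edgeR unadjusted p = 0.368). The part of Xist status in the scatter was not tested. In bulk tissue more cells of a type cannot be told apart from more RNA per cell.

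**Figure D2:**
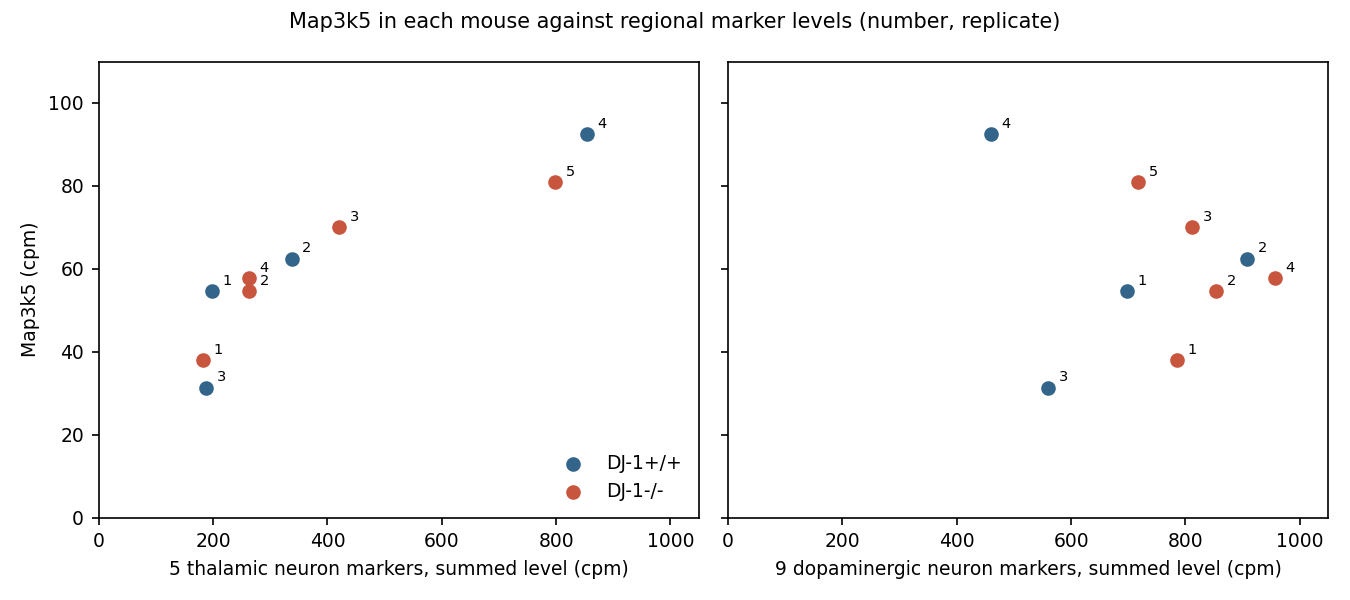
Map3k5 level in each of the 9 mice (cpm) against the summed level of 5 thalamic neuron markers (left) and of 9 dopaminergic neuron markers (right), with replicate numbers beside the points. Map3k5 climbs with the thalamic sum in mice of both genotypes, from 31.4 to 92.5 cpm, and shows no such order along the dopaminergic sum.

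Of 19 genes of the ASK1 cascade, from its inhibitors to the kinases and factors downstream, all were tested. In DJ-1-/- mice 8 had a higher and 11 a lower estimate, the median log2 fold change was −0.07, and edgeR gave none an unadjusted p under 0.05. The ASK1 relatives Map3k6 and Map3k15 were near the smallest level that can be shown, at 2.87 ± 0.605 and 5.11 ± 5.71 cpm for the DJ-1+/+ genotype (SD, n = 4), well under Map3k5. Txn1, thioredoxin, which holds ASK1 inactive, was at 160 ± 26.4 cpm (DJ-1+/+) against 152 ± 10.2 cpm (DJ-1-/-, SD over 4 and 5 mice). Among the kinases at the end of the cascade, Mapk10 (JNK3, the neuronal JNK) was the most abundant at 268 ± 18.3 and 254 ± 24.5 cpm, and Mapk14 (p38α) was at 51.0 ± 3.51 and 50.6 ± 9.47 cpm. The smallest p-values of the list were those of Traf6, an adaptor that activates ASK1 (log2 fold change −0.29, standard error 0.20, edgeR unadjusted p = 0.162), and of Atf2, a factor phosphorylated by JNK and p38 (0.11, standard error 0.08, edgeR unadjusted p = 0.203).

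Hipk1 (ENSMUSG00000008730) is a minus-strand gene of chromosome 3 (103739815 to 103791563). An annotated antisense gene, Gm15886, overlaps its exons and had 0 counts. Hipk1 had 1193 counts over the 9 mice, the highest total of the members but close to that of Sfpq. Its levels were 151, 141, 142 and 146 cpm in DJ-1+/+ against 144, 118, 130, 145 and 147 cpm in DJ-1-/- mice. Of the DJ-1-/- mice, 3 fell inside the DJ-1+/+ range and replicates 2 and 3 lay under it. The means were 145 ± 4.48 cpm (SD, n = 4) and 137 ± 12.3 cpm (SD, n = 5). The log2 fold change was −0.08 with a 95% interval of −0.26 to 0.09 (edgeR unadjusted p = 0.329, adjusted p = 1). With thinned counts it was −0.15 (edgeR unadjusted p = 0.0959).

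Of the other HIPK kinases, Hipk2 stood at 135 ± 12.6 cpm (DJ-1+/+) against 130 ± 16.2 cpm (DJ-1-/-) and Hipk3 at 99.8 ± 6.35 and 102 ± 11.5 cpm (SD, n = 4 and n = 5). Hipk1 exceeded Hipk3 in 9 of 9 mice and Hipk2 in 6 of 9, so Hipk1 and Hipk2 were not distinguishable in level. Hipk4 had 5 counts over the 9 mice and was not tested. The list of HIPK relatives and partners had 9 genes, of which 8 were tested. Estimates were higher in DJ-1-/- mice for 4 and lower for 4, their median log2 fold change was 0.01, and edgeR gave none an unadjusted p under 0.05. The smallest p was that of Tle1, a Groucho corepressor (0.19, standard error 0.12, edgeR unadjusted p = 0.133), and the next that of Siah1a, a ubiquitin ligase of HIPK2 (−0.24, standard error 0.17, edgeR unadjusted p = 0.175).

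Sfpq (ENSMUSG00000028820) is a plus-strand gene of chromosome 4 (127021324 to 127037013), 23.9 Mb from Park7, which lies on the same chromosome from 150897133 to 150914437. A linked difference between the targeted and wild-type chromosomes was not tested. The annotated transcript Gm12940 shares exon sequence and strand with it and was counted 72 times against 1173 counts of Sfpq, and reads may be divided between these overlapping genes. Sfpq had 118, 148, 105 and 127 counts in DJ-1+/+ and 113, 149, 129, 144 and 140 counts in DJ-1-/- mice. In cpm the values were 140, 168, 122 and 143 against 113, 136, 133, 149 and 136, with the highest mouse DJ-1+/+ replicate 2 and the lowest DJ-1-/- replicate 1. The means were 143 ± 18.9 cpm (SD, n = 4) and 133 ± 12.9 cpm (SD, n = 5). The log2 fold change, −0.11 with a 95% interval of −0.31 to 0.10, had the smallest p of the members (edgeR unadjusted p = 0.285, adjusted p = 1). Without DJ-1+/+ replicate 2 it was −0.03.

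Nono (ENSMUSG00000031311) is a plus-strand gene of chromosome X (101429318 to 101448591). It was the steadiest member, with 72, 78, 80 and 82 counts in DJ-1+/+ and 82, 83, 86, 84 and 90 counts in DJ-1-/- mice, or 85.5, 88.6, 93.1 and 92.5 cpm against 82.1, 75.6, 88.7, 86.8 and 87.7 cpm. The lower values of the DJ-1-/- mice, replicates 1 and 2, lay under every DJ-1+/+ mouse and the other 3 overlapped them. Means were 89.9 ± 3.55 cpm (SD, n = 4) and 84.2 ± 5.44 cpm (SD, n = 5). The log2 fold change was −0.10 with a 95% interval of −0.29 to 0.10 (edgeR unadjusted p = 0.357). That interval is narrower than the p implies. It rests on a standard error of 0.09, against 0.11 in edgeR's likelihood ratio test and 0.14 in DESeq2. An exact two-sided permutation test of the cpm gave p = 0.127, and 1 after adjustment over all genes tested. The 3 mice without Xist had 85.5, 92.5 and 87.7 cpm of Nono, inside the range of the 6 mice with Xist, 75.6 to 93.1 cpm. With Xist as a covariate the log2 fold change was −0.09 (edgeR unadjusted p = 0.448), and with thinned counts −0.04 (edgeR unadjusted p = 0.725). The chi-square per degree of freedom of Nono within genotype was 0.26, lower than in all but 2.62% of the genes with at least 200 counts, so its mice differed by no more than counting error gives.

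SFPQ and NONO form dimers with each other and with PSPC1, the remaining protein of their family (DBHS), and the 3 are core parts of paraspeckles, nuclear bodies built on the RNA Neat1. The ratio of Sfpq to Nono counts, which does not depend on library depth, was 1.599 ± 0.242 in DJ-1+/+ (SD, n = 4) and 1.589 ± 0.167 in DJ-1-/- mice (SD, n = 5), with 1.31 and 1.90 as the extremes, both in DJ-1+/+ mice. Pspc1 was at 134 ± 6.68 and 123 ± 8.61 cpm. It exceeded Nono in 9 of 9 mice, with a count ratio of 1.49 ± 0.08 and 1.46 ± 0.09, and was exceeded by Sfpq in 8 of 9. The proportions of the DBHS transcripts thus differed between genotypes by less than the spread between mice.

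The list of 12 paraspeckle and DBHS partners had the lowest median of the 7 partner lists. All 12 were tested, 9 were lower and 3 higher in DJ-1-/- mice, and the median log2 fold change was −0.14. In edgeR's test 2 genes had an unadjusted p under 0.05, both lower in DJ-1-/- mice, and neither passed the adjustment over all genes. Over all genes tested, 1.26% were lower at that unadjusted threshold. Hnrnpm, a splicing regulator, was at 145 ± 20.99 cpm (DJ-1+/+) against 120 ± 9.96 cpm (DJ-1-/-, SD over 4 and 5 mice), a log2 fold change of −0.27 (standard error 0.10, edgeR unadjusted p = 0.0140, adjusted p = 1). Matr3, a nuclear matrix RNA-binding protein, was at 180 ± 9.66 and 159 ± 13.4 cpm, a log2 fold change of −0.18 (standard error 0.08, edgeR unadjusted p = 0.0377, adjusted p = 1). In DESeq2 the unadjusted p of Hnrnpm was 0.0187 and that of Matr3 0.0578. An exact two-sided permutation test of the levels gave p = 0.0635 for Hnrnpm and 0.0476 for Matr3. Neat1 itself was at 154 ± 17.8 and 140 ± 12.3 cpm, with a log2 fold change of −0.15 and an edgeR unadjusted p of 0.119.

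**Figure D3:**
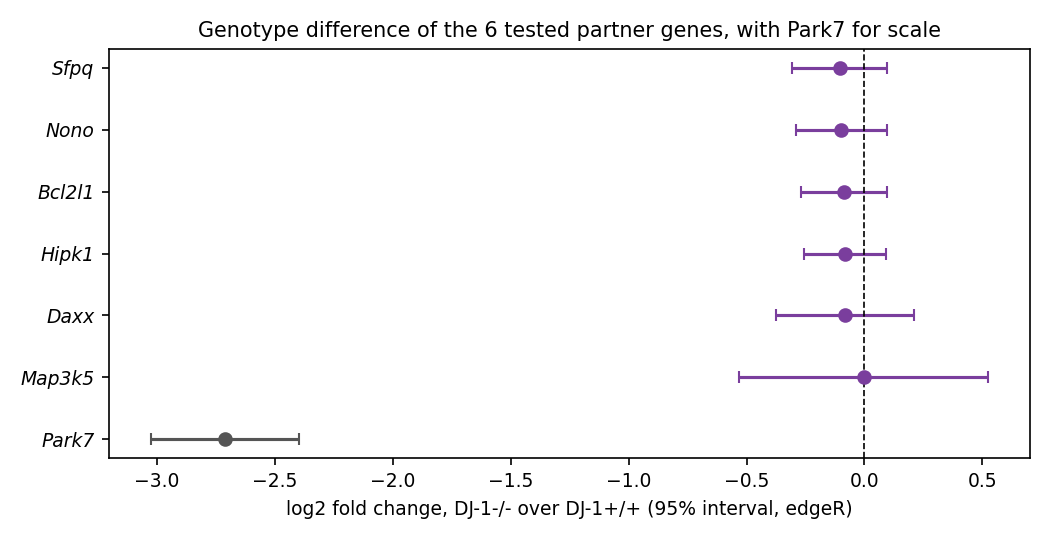
Log2 fold change of DJ-1-/- over DJ-1+/+ mice for the 6 tested members and Park7, from edgeR's quasi-likelihood fit, with 95% intervals as horizontal bars. The intervals of the members include 0 and reach at most −0.53 and 0.52, both for Map3k5, whereas that of Park7 runs from −3.03 to −2.40.

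Bcl2l1 (ENSMUSG00000007659) is a minus-strand gene of chromosome 2 (152780668 to 152831728). Its counts were 106, 115, 93 and 102 in DJ-1+/+ and 104, 134, 105, 121 and 108 in DJ-1-/- mice, or 125.9, 130.7, 108.2 and 115.1 cpm against 104.1, 122, 108.3, 125.03 and 105.2 cpm. The genotypes overlapped over most of their range, with DJ-1-/- replicates 1 and 5 under the lowest DJ-1+/+ mouse and DJ-1+/+ replicates 1 and 2 above the highest DJ-1-/- mouse. The means were 120 ± 10.2 cpm (SD, n = 4) and 113 ± 9.84 cpm (SD, n = 5). The log2 fold change was −0.09 with a 95% interval of −0.27 to 0.10 (edgeR unadjusted p = 0.357, adjusted p = 1), and a fold outside 0.83 to 1.07 is outside that interval. The interval is somewhat narrower than this p implies. Counts are of the whole gene, so the long anti-apoptotic and the short pro-apoptotic splice form could not be separated.

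Among the transcripts of anti-apoptotic proteins, Bcl2l1 was followed by Bcl2 at 107 ± 7.26 cpm (DJ-1+/+) against 107 ± 11.9 cpm (DJ-1-/-), Mcl1 at 93.7 ± 5.47 and 90.4 ± 2.24 cpm, and Bcl2l2 at 81.3 ± 15.4 and 80.2 ± 6.63 cpm (SD, n = 4 and n = 5). Bcl2l1 was above Mcl1 and Bcl2l2 in 9 of 9 mice and above Bcl2 in 7 of 9. Bax, the pore-forming protein that Bcl-xL restrains, was at 23.7 ± 7.33 and 20.8 ± 4.74 cpm. The count ratio of Bcl2l1 to Bax was 5.58 ± 2.33 in DJ-1+/+ and 5.68 ± 1.54 in DJ-1-/- mice, a difference far smaller than the SD of either genotype.

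Of the 15 other Bcl-2 family genes 14 were tested. Estimates were higher in DJ-1-/- mice for 3 and lower for 11, their median log2 fold change was −0.05, and edgeR gave none an unadjusted p under 0.05. The genes with the smallest p were the pro-apoptotic BH3-only genes Hrk, at 44.2 ± 17.0 cpm (DJ-1+/+) against 54.4 ± 18.5 cpm (DJ-1-/-) (edgeR unadjusted p = 0.259), and Pmaip1 (Noxa), at 4.86 ± 5.13 and 8.16 ± 5.73 cpm (edgeR unadjusted p = 0.260). Bik had 3 counts over the 9 mice and was not tested.

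**Figure D4:**
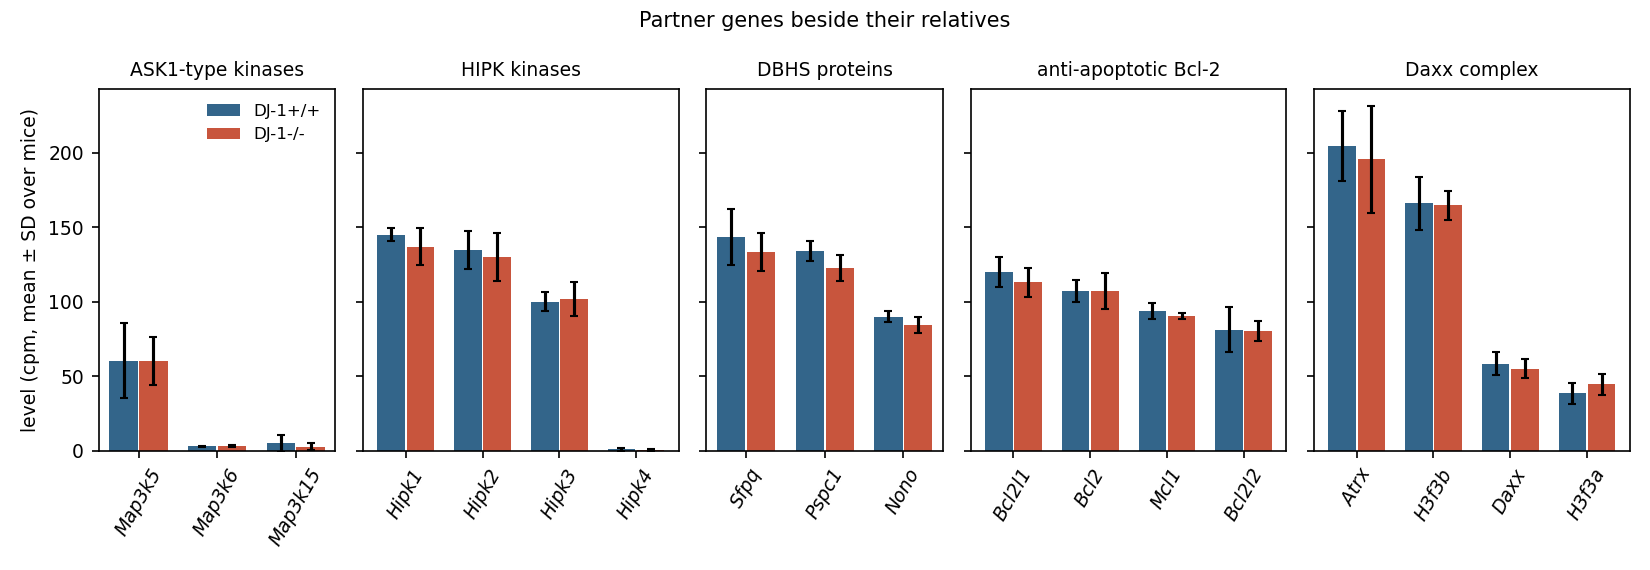
Levels of Map3k5, Hipk1, Sfpq, Nono, Bcl2l1 and Daxx beside their relatives or complex partners, as mean ± SD in cpm over 4 DJ-1+/+ and 5 DJ-1-/- mice, on an axis that starts at 0. Map3k5 stands well above Map3k6 and Map3k15, and Hipk1, Sfpq and Bcl2l1 have the highest mean of their groups, with close neighbours in Hipk2, Pspc1 and Bcl2, while Atrx is above Daxx.

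Efcab6 (ENSMUSG00000022441) is a minus-strand gene of chromosome 15 (83866712 to 84065379). The DJ-1+/+ mice had 1, 2, 0 and 1 counts and the DJ-1-/- mice 1, 0, 3, 0 and 0, which is 8 counts in all and under the 10 required for testing. Every mouse was at or under the smallest level that can be shown, so no fold is given, and a difference was not detectable at this depth. The ciliated ependymal cells of the ventricle wall were represented in the samples, with Foxj1 at 49.2 ± 17.0 cpm (DJ-1+/+) against 46.3 ± 12.9 cpm (DJ-1-/-, SD over 4 and 5 mice) and with counts of all 10 ependymal markers.

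EFCAB6 is reported to act with transcriptional corepressors. Of the 7 genes of the list of corepressors and their partners, all tested, 1 had a higher and 6 had a lower estimate in DJ-1-/- mice, and the median log2 fold change was −0.03. The deacetylase gene Hdac2 had 105.3 ± 3.52 cpm (DJ-1+/+) against 91.4 ± 4.498 cpm (DJ-1-/-), a log2 fold change of −0.20 (standard error 0.08, edgeR unadjusted p = 0.0460, adjusted p = 1), with an unadjusted p of 0.0930 in DESeq2. Its relative Hdac1 had 63.2 ± 1.67 and 55.9 ± 4.56 cpm, a log2 fold change of −0.18 (standard error 0.12, edgeR unadjusted p = 0.166). For both the values of the genotypes did not overlap, as was so for 1.25% of all genes tested.

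A further 12 genes reported to bind DJ-1 or to act with it, among them those for PINK1, parkin and α-synuclein, were all tested. The estimate was higher in DJ-1-/- mice for 8 and lower for 4, around a median log2 fold change of 0.02. In edgeR's test 1 had an unadjusted p under 0.05, as had 2.83% of all genes tested. It was Vhl, which encodes the recognition subunit of a ubiquitin ligase for HIF-1α, at 82.9 ± 8.18 cpm (DJ-1+/+) against 70.6 ± 5.58 cpm (DJ-1-/-) (log2 fold change −0.23, standard error 0.11, unadjusted p = 0.0445, adjusted p = 1 in edgeR's test), and its unadjusted p in DESeq2 was 0.0993.

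Over the 7 partner lists as a whole, with each gene counted once, 78 of 81 genes were tested, 29 with a higher and 49 with a lower estimate in DJ-1-/- mice. An unadjusted p under 0.05 was found for 4, which is 5.13% against 2.83% over all genes tested, and none passed the adjustment. The count of 4 was between 1 and 6 in the alternative fits, and the genes behind it changed as well. Without DJ-1+/+ replicate 4 the count was again 4, but Matr3, Hdac2 and Vhl were not among those genes. The levels of 3 of the 78 did not overlap between genotypes, against 1.25% of all genes tested. They were Hdac1, Hdac2 and the paraspeckle partner Hnrnph3. Hnrnph3 was at 124 ± 6.87 cpm (DJ-1+/+) against 112 ± 4.01 cpm (DJ-1-/-, SD over 4 and 5 mice, edgeR unadjusted p = 0.104).

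In the order of their levels over the 9 mice, Hipk1 (140 ± 10.1 cpm) and Sfpq (138 ± 15.7 cpm) could not be told apart, Hipk1 being the higher in 5 of 9 mice. Sfpq was above Bcl2l1 (116 ± 10.1 cpm) and Bcl2l1 above Nono (86.7 ± 5.36 cpm) in 9 of 9 mice. Nono was above Map3k5 (60.3 ± 19.3 cpm) in 8 of 9, and Map3k5 and Daxx (56.6 ± 6.78 cpm) were not distinguishable, with Map3k5 higher in 5 of 9. Efcab6 (0.97 ± 1.12 cpm) was below each of the others in every mouse (SD, n = 9 throughout). In mean level Hipk1 exceeded 91.7% and Sfpq 91.0% of the genes tested, and the least abundant tested member, Daxx, 61.5%.

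Apart from Map3k5 and Sfpq, the tested members varied little between mice of one genotype. The chi-square per degree of freedom was 1.64 for Sfpq, and 72.3% of the genes with at least 200 counts had a lower value. It was 0.82 for Bcl2l1, 0.81 for Daxx, 0.72 for Hipk1 and 0.26 for Nono. For Daxx, Hipk1, Nono and Bcl2l1 the variation within genotypes was thus no larger than counting error gives.

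**Figure D5:**
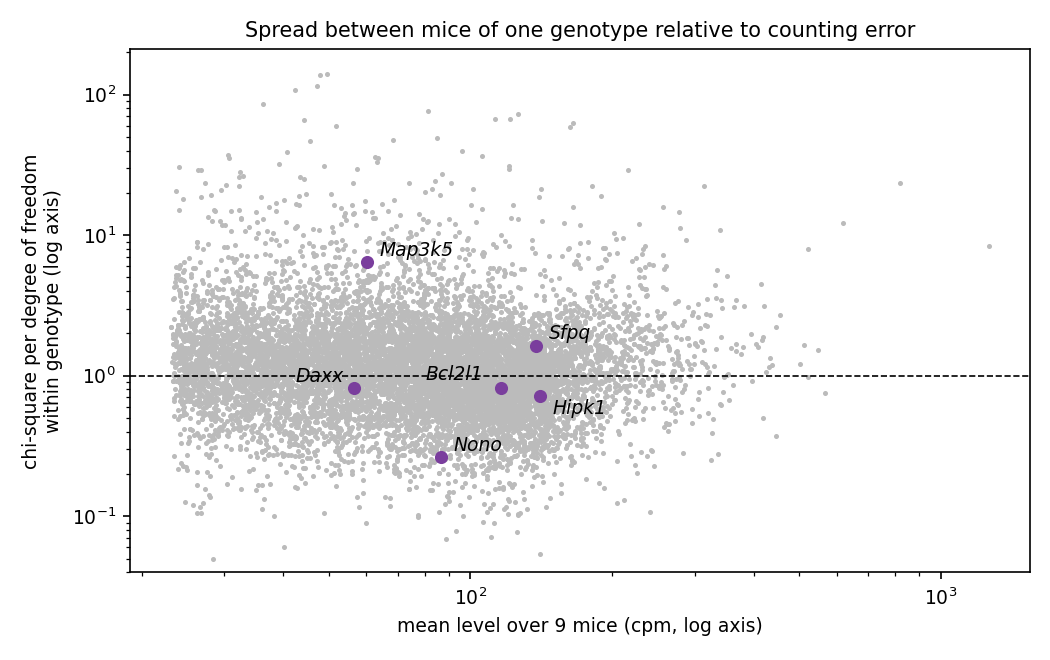
Chi-square per degree of freedom of the counts between mice of one genotype, against mean level in cpm, for the 10441 genes with at least 200 counts (grey) and the 6 tested members (purple), on log axes, with counting error alone as a dashed line at 1. Map3k5 stands at 6.46 and Nono at 0.26, with the other members between 0.72 and 1.64.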

How the data were processed

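The authors deposited, for each mouse, raw UMI counts per Ensembl gene, listing only genes with at least 1 count and without normalization. The submitters' processing notes name fastp 0.20.0, STAR 2.7.3a, featureCounts 2.0.0 and UMI-tools 1.0.0 and the build GRCm38. The use of strand is not given in the sources used here. The 9 sets of counts were joined by identifier, an unlisted gene being given 0 counts, and 26576 of 26602 identifiers were matched in GENCODE M21 (GRCm38), which gave symbols and positions.

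The 18127 genes that reached 10 counts when all 9 libraries were summed were fitted together with edgeR 4.0.16 in R 4.3.3 (TMM normalization, estimateDisp, glmQLFit, glmQLFTest, genotype as the only term), with Benjamini-Hochberg adjustment over all of them. Standard errors were obtained as the absolute log2 fold change over the root of the F statistic, and the 95% interval used the t quantile for the degrees of freedom of the fit. For some genes that varied little, among them Nono, Bcl2l1 and Hdac2, these standard errors are smaller than the printed p implies. Their intervals are then too narrow. Exact two-sided permutation tests enumerated every assignment of 4 and 5 libraries to the genotypes, for which 0.0159 is the smallest possible p. On simulated counts with 200 genes of at least 200 counts changed by 1 on the log2 scale, 191 were recovered. At the same adjusted threshold 8 unchanged genes were called as well. Every gene was simulated with the same dispersion and recovery of smaller changes was not examined, so this gives no power for the members' estimates. Chi-square tests between libraries of one genotype gave 1.07 to 2.27 per degree of freedom, so no set of counts was a copy of another. Counting error alone gives about 1, so a second library of the same mouse could pass this check.

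The genes named are the members, Park7 and Xist, in each partner list the genes with an unadjusted p under 0.05 and the 2 with the smallest p, and for each member the 3 genes with the most similar profile. Relatives of a member are given for comparison of level and were picked with values in view. Some genes that the rule names are not reported here. The members and lists were chosen with earlier results of these data known. Alternatives were other normalizations, DESeq2 1.42.0, edgeR's likelihood ratio test, other filters, thinned counts, covariates, the replicate number as a block and left-out libraries. The replicates are separate mice, and the sex of the mice is not given in the sources used here.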

Additional observations from a re-analysis of the deposited data

Results flagged for a closer look

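Among 44 groups examined (22 named genes in each genotype), 1 held a mouse that stood apart from the others of its genotype, where chance gives about 1 in 20. It was DJ-1+/+ replicate 2 for Hdac2, at 100.01 cpm (88 counts), while the next lowest DJ-1+/+ mouse had 107 cpm. It was still above every DJ-1-/- mouse.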

How the results depend on the processing

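Across 22 alternatives no member had an adjusted or unadjusted p under 0.05, including DESeq2 and the exact permutation test. Hipk1, Sfpq, Nono and Bcl2l1 kept a log2 fold change below 0 in all 22. With single libraries left out the log2 fold change ranged from −0.15 to 0.00 for Daxx, −0.22 to 0.28 for Map3k5, −0.12 to −0.03 for Hipk1, −0.18 to −0.03 for Sfpq, −0.12 to −0.06 for Nono and −0.14 to −0.05 for Bcl2l1. Outside these ranges, thinning all libraries to 841974 counts gave −0.15 for Hipk1 and −0.04 for Nono, with 513 unadjusted calls and 1 adjusted call, and only the libraries with Xist gave −0.13 for Nono. That of Map3k5 was above 0 without a filter on low counts (0.00604), with Xist as a covariate (0.21), in only the libraries with Xist (0.22), in the permutation test's cpm (0.00, as 0.00096 before rounding), and without DJ-1+/+ replicates 1 and 4 (0.36), where that of Daxx was 0.00442. That pair was chosen after seeing the data and holds the only DJ-1+/+ mice without Xist, and the causes were not tested. Whole-table counts of 513 unadjusted and 1 adjusted call became 235 unadjusted in DESeq2 (106 higher, 129 lower, against 285 and 228), 338 with filterByExpr, 802 and 36 without a filter, 2 adjusted in the likelihood ratio test and with the thalamic covariate, 3 in the libraries with Xist and 0 in the permutation test, which cannot reach the threshold. Leaving out single libraries gave 338 to 732 and 1 to 2. The 4 partner genes with an unadjusted p under 0.05 became 1 in DESeq2, without a filter and in the libraries with Xist, 2 without DJ-1+/+ replicates 1 and 4, and 1 to 5 with single libraries left out. Without DJ-1+/+ replicate 1, DJ-1+/+ replicate 3 or DJ-1-/- replicate 3 it was 1, and without DJ-1-/- replicate 1 it was 2. Matr3, Hdac2 and Vhl lost their unadjusted p under 0.05 in DESeq2, without a filter (p = 0.0521, 0.0657 and 0.0777), with Xist as a covariate (0.108, 0.112 and 0.0638) and without DJ-1+/+ replicates 1 and 4 (0.204, 0.171 and 0.206), and Hnrnpm lost its own in the last of these (0.0871), in the exact permutation test and without DJ-1+/+ replicate 1 (0.0761). In the exact permutation test Matr3, Hdac2 and Vhl stayed under 0.05 before adjustment (p = 0.0476, 0.0159 and 0.0317).

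The labels do not pair mice by number. Same-numbered mice had deviations from the genotype means that correlated at 0.30, 0.05, −0.12 and −0.19, so the numbers were not taken as pairs. With the replicate number as a block, which gives DJ-1-/- replicate 5 no weight, 8 genes were called in place of 1, no member among them. The smallest level that can be shown was 2.73 to 3.56 cpm, and Efcab6 was at or under it in every library.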

Other observations

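The genes whose levels over the 9 mice were most like those of a member were Pou2f1, Cyp46a1 and Hrh3 for Map3k5 (Pearson's r of log2 levels 0.97 for each). Cyp46a1 is the neuronal cholesterol 24-hydroxylase and Hrh3 the histamine H3 receptor. They were Gnl3, Brd7 and Dicer1 for Sfpq (0.95, 0.95 and 0.94), Mllt10, Zfp644 and Ostc for Bcl2l1 (0.95, 0.94 and 0.94), Gigyf2, Mia3 and Os9 for Hipk1 (0.94, 0.92 and 0.91), Gpr137c, Bmi1 and Wwtr1 for Daxx (0.94, 0.91 and 0.90) and Erbin, Galnt1 and Zhx3 for Nono (0.92, 0.91 and 0.89). For a typical gene among the 7568 at 50 cpm or more, the closest match had r = 0.95, and among the 6 tested members Map3k5, Sfpq and Bcl2l1 had a match at or above that level. For Efcab6, with 8 counts, the closest were Sart3, Mir703 and Mcrip1 (0.96, 0.92 and 0.89), and the value rests on 5 mice with a count. These are descriptions over libraries that differ in depth and dissection.

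Among the 21 pairs of members, Sfpq and Bcl2l1 followed each other most closely over the 9 mice, with r = 0.80 and rho = 0.80. Sfpq and Nono, whose proteins form a dimer, had r = 0.18 and rho = 0.08, and Daxx and Hipk1, on the same signalling route, r = −0.21 and rho = −0.10. For most members the differences between mice were no larger than counting error, which leaves little for such a comparison to follow.

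Marker lists of other midbrain and neighbouring cell types differed between samples. Choroid plexus markers summed to 168 to 899 cpm in DJ-1+/+ and 165 to 277 cpm in DJ-1-/- mice, and all 10 had a log2 fold change below 0, 6 of them at an unadjusted p under 0.05 by edgeR. Cerebellar neuron markers summed to 537 to 1526 and 581 to 744 cpm, with 9 of 10 below 0 and 4 with an unadjusted p under 0.05. Dopaminergic neuron markers summed to 459 to 908 and 717 to 957 cpm, with 9 of 9 above 0 and 4 with an unadjusted p under 0.05. Forebrain neuron markers, added after seeing the data, summed to 155 to 258 and 159 to 284 cpm. The neuron, astrocyte, oligodendrocyte, microglia, endothelial and ependymal lists held no gene with an unadjusted p under 0.05, and their summed levels overlapped between the genotypes. Their part in the members' values was not tested beyond the fits that left out DJ-1+/+ replicates 1 and 4. These are also the only DJ-1+/+ mice without Xist, so those fits cannot tell the regional markers apart from Xist status.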
